A study of Mus musculus with 2 samples.

Results

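Open chromatin was described at 6 genes of neurotrophin signalling, Ntrk2, Ntrk3, Ngfr, Sort1, Ntf3 and Ntf5, of 21938 protein-coding genes in GENCODE M21. For each, peaks and footprints were taken at every annotated transcript start, 500 bp on either side, and in the gene record with 20 kb on each side, which is called the locus here. The 6 loci held 77 of 98902 peaks in replicate 1 and 101 of 130199 peaks in replicate 2.

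The tissue was hippocampus, labelled as a layer of hippocampus, from female B6CASTF1/J mice aged 8 to 10 months. B6CASTF1/J is an F1 cross of inbred strains, and the mice carried no treatment or engineered allele in the labels. DNase-seq cuts nuclear DNA with the enzyme DNase I, and sites that are cut often are listed as peaks of open chromatin. Short protected stretches, in these loci mostly within peaks, are listed as footprints. There was 1 group of 2 libraries, each from a pool of 2 biosamples. The labels give both pools the same donor entry and do not state whether different animals went into each, so the spread between libraries may be partly technical, and with no second group no test between conditions was made.

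Neurotrophins are secreted growth factors that support the survival, growth and synaptic function of neurons. They act through Trk receptor tyrosine kinases, each with preferred ligands: TrkB, encoded by Ntrk2, binds BDNF and neurotrophin-4/5, and TrkC, encoded by Ntrk3, binds neurotrophin-3. The receptor p75NTR, encoded by Ngfr, binds all neurotrophins, and together with sortilin, encoded by Sort1, it binds their unprocessed proforms. Ntf3 encodes neurotrophin-3 and Ntf5 encodes neurotrophin-4/5. In adult hippocampus TrkB is known for its part in synaptic plasticity.

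The sequences that carry the main sites are given first, from the RefSeq GRCm38.p6 genome, the same assembly as mm10, 5' to 3' on the strand of the gene. Positions are 1-based. In the first set, capitals mark bases that lay in a footprint in both libraries. The Ntrk2 sequence is the part of the 5' promoter site before the first annotated start (chr13:58806401-58806568, plus strand). The Sort1 sequence is its whole promoter site (chr3:108283841-108284080, plus strand). The Ntrk3 sequence is the replicate 2 peak of the strongest site at any Ntrk3 start (chr7:78718281-78718480, minus strand). None of the printed sequences overlapped an exon of an annotated coding transcript.
Ntrk2 5' promoter site: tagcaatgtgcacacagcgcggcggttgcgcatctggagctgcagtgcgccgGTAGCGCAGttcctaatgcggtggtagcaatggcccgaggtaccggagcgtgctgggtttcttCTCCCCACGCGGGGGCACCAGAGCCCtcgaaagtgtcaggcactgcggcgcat
Sort1 promoter site: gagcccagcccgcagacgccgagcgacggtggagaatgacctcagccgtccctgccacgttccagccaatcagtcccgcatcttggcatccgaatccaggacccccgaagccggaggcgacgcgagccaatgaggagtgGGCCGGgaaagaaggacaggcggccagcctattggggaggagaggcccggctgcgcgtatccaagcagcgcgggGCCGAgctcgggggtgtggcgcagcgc
Ntrk3-218 start site: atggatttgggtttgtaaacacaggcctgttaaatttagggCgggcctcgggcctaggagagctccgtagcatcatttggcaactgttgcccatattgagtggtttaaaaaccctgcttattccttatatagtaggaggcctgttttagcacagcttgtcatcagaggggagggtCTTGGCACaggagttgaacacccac

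Another set shows open sites outside the promoter windows of protein-coding genes, again with capitals for bases in a footprint in both libraries. They are the strongest such site of the Ntrk2 locus (chr13:59145761-59145960, plus strand), the replicate 1 peak of an Ntrk2 site in intron 16 (chr13:59092781-59092980, plus strand), the Ngfr intron 1 site (chr11:95586281-95586540, minus strand) and the Ntf3 intron 2 site (chr6:126106461-126106740, minus strand).
Ntrk2 downstream site: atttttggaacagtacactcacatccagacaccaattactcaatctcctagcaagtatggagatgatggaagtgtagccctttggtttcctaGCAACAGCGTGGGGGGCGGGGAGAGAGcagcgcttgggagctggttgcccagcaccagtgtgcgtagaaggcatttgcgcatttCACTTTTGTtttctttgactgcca
Ntrk2 intron 16 site: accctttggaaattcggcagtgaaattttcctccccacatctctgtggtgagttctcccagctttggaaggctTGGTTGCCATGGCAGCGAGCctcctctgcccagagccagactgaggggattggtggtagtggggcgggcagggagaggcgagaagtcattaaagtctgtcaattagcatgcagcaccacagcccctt
Ngfr intron 1 site: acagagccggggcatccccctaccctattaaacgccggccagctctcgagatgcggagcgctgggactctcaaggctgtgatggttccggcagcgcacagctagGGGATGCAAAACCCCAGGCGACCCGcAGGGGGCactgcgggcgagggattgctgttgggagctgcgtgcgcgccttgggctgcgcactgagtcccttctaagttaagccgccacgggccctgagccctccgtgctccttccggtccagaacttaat
Ntf3 intron 2 site: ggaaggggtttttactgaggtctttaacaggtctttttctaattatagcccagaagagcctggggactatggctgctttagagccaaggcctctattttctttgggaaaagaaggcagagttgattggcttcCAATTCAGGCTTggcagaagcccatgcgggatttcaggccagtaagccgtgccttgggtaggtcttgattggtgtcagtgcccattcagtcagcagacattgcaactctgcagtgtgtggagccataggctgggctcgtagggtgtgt

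In the last set capitals mark motif letters, read on both strands. In the Ntrk3 intron 11 sites they mark CAGATG, the core of E-boxes that neuronal basic helix-loop-helix factors bind, or its reverse complement, and the second of these sites is cut to its replicate 1 peak (chr7:78390061-78390320, minus strand, and chr7:78386124-78386223, minus strand). In the Ngfr promoter, of which the part before the start is shown, they mark GGGCGG, the core bound by SP and KLF factors (chr11:95587736-95587800, minus strand).
Ntrk3 intron 11 site: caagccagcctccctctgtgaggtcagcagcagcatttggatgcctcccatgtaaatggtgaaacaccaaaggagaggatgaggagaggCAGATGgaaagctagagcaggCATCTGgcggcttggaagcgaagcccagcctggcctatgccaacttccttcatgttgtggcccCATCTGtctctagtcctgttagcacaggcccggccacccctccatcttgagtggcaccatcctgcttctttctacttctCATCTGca
Ntrk3 second intron 11 site: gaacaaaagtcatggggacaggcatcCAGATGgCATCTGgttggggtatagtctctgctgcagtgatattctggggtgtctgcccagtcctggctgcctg
Ngfr promoter: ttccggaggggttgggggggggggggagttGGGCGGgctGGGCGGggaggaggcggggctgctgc

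Among the 6 genes, 3 were open at a promoter in each library, and 59.2% of all protein-coding genes were. They were the receptor genes Ntrk2 and Ntrk3 and the co-receptor gene Sort1. Ngfr had a promoter peak in replicate 2 only, a state shared with 3.22% of all genes. The ligand genes Ntf3 and Ntf5 had none in either library, as had 36.4% of all genes. The same 3 genes, Ntrk2, Ntrk3 and Sort1, held a footprint of both libraries within a promoter window, against 53.7% of all genes. Counted by transcript start, 12 of the 37 starts of the 6 genes were open in both libraries, against 47.3% of all starts of protein-coding genes. Of the 20 starts of coding transcripts 9 were open in both libraries, and of the 17 starts without a coding transcript 3 were. Of those 17, 13 were of Ntrk3, and the share over all genes was not split by kind of start.

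The height of each peak is the deposited signal, whose scale the sources used here do not give, so levels were set beside those of other genes in the same library. The promoter signal of a gene is that of its highest promoter peak. At Ntrk2 it was 3.29 in replicate 1 and 3.14 in replicate 2 (mean 3.22 ± 0.11, SD, n = 2). At Sort1 it was 3.10 and 3.27 (3.18 ± 0.12, n = 2), and at Ntrk3 it was 1.83 and 1.78 (1.81 ± 0.03, n = 2). Ngfr had 0.612 in replicate 2 and no promoter peak in replicate 1. Among all genes with a promoter peak the median was 2.07 in replicate 1 and 2.34 in replicate 2. Ntrk2 stood at percentiles 68.8 and 62.9 of those genes, Sort1 at 66.6 and 64.7, Ntrk3 at 45.1 and 39.0, and Ngfr at 10.1 in replicate 2. Ntrk2 and Sort1 changed places between the libraries and differed by less than their spread, while Ntrk3 was lower than both in each library.

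**Figure D1:**
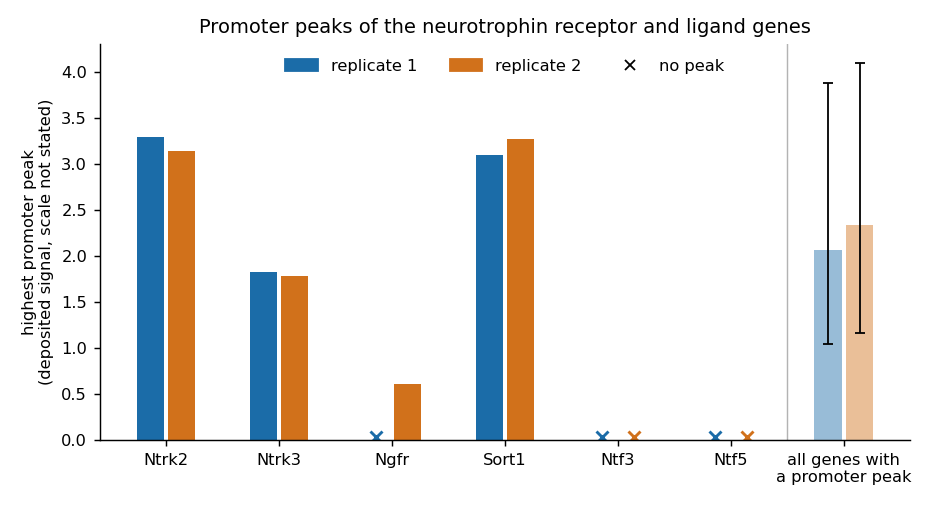
Promoter signal of the 6 genes in replicate 1 (blue) and replicate 2 (orange), as the deposited signal of the highest peak within 500 bp of any start, with crosses for no peak. On the right, pale bars give the median of all genes with a promoter peak and black lines the quartiles; Ntrk2 and Sort1 stood above both medians (2.07 and 2.34), Ntrk3 below them.

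Ntrk2 spans chromosome 13, 58806569 to 59133970, on the plus strand, and has 10 annotated transcripts from 9 starts. All 6 of its coding starts had a peak within 500 bp in both libraries, from 4 separate sites, and the start of Ntrk2-202 lay between sites rather than in one. The first site (58806401 to 58806680), over the start of Ntrk2-207, stood at 2.67 in replicate 1 and 3.14 in replicate 2. A further one (58806881 to 58807200) had 1.18 and 1.296. The next (58807581 to 58807880), in exon 1 of Ntrk2-201 where that transcript starts, had 3.29 and 2.72. The last (58808421 to 58808820), over the shared start of Ntrk2-208 and Ntrk2-209, had 1.26 in both. The sites over Ntrk2-207 and Ntrk2-201 were therefore of like height, and which was the higher differed between the libraries.

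The deposited false discovery rates at these sites were low. The lowest at the site over Ntrk2-207 was 9.38e-20 in replicate 1 and 3.29e-34 in replicate 2. Around the start of Ntrk2-201, all 1001 bases of the window were listed below 0.05 in both libraries. In order along the gene, the 4 sites held 3, 1, 3 and 3 footprints of both libraries. The printed Ntrk2 promoter sequence shows 2 of them before the first start. A single GGGCGG match lay in that site and touched a footprint in replicate 2 only. The only Ntrk2 starts without a peak were those of 2 transcripts inside the gene that are not annotated as protein-coding, Ntrk2-210 and Ntrk2-203, where no base was listed below 0.05 in either library.

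Beyond its promoters, the Ntrk2 locus held 35 further open sites, 20 of them in both libraries. In peaks per 100 kb, it had 7.08 in replicate 1 and 10.3 in replicate 2. Among the 653 genes within 1.5-fold of its length the medians were 4.05 and 5.93, and the locus stood at percentiles 85.9 and 93.1 of them. The strongest distal site lay in the downstream flank (59145761 to 59145960), 339 kb from the 5' end of the 327 kb gene record, with 3.97 in replicate 1 and 3.56 in replicate 2. This was higher than any Ntrk2 promoter site in either library. Starts of the long intergenic noncoding RNA genes Gm34307 and Gm34354 lay within 500 bp of it. Its printed sequence holds 2 stretches in footprints of both libraries, the longer of which covers a GGGCGG match. The 4 sites of the downstream flank were all found in both libraries. Another of them (59144281 to 59144580) had 1.74 and 1.59.

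Ntrk2 produces full-length TrkB and truncated TrkB without the kinase domain, and the annotation holds both kinds. Ntrk2-201 and Ntrk2-207 encode 821 codons, while Ntrk2-202 and Ntrk2-204 encode 476 codons, the later of them ending at 58937027. Within the record, outside the promoter windows, 12 sites lay before that end and 5 of these were in both libraries, with mean signals from 0.595 to 0.972. After it lay 19 sites, 11 of them in both libraries, with mean signals from 0.549 to 2.75. Within the gene record, the part covered by the longer coding transcripts alone held the distal sites of highest signal, while the medians of the shared sites, 0.869 after that end and 0.811 before it, were close. In intron 12, numbered as in Ntrk2-201, 9 of 11 sites were found in replicate 2 only. Those 9 had signals from 0.310 to 0.708, against a median of 0.580 for all replicate 2 peaks. Over the 6 loci 41 of 117 sites were in replicate 2 only, and 54.0% of all sites of the genome were in both libraries. In introns 13 to 16 of the same transcript, 9 of 13 sites were found in both libraries.

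The 3 strongest intronic sites of Ntrk2 lay in introns 16 and 13. The intron 16 site at 59073661 to 59074100 had 2.36 in replicate 1 and 3.13 in replicate 2, and 3 footprints of both libraries. The longest footprint of the locus lay in it, at 38 bp in replicate 1 against 27 bp for the longest of replicate 2. None of the replicate 1 footprints of this site lay wholly inside a replicate 1 peak. The intron 16 site at 59092781 to 59093040 had 2.39 in replicate 1 and 1.66 in replicate 2. In its printed sequence the 20 capital bases hold GTTGCCATG, a match of the partial RFX site GTTNCCATG, which 4.17% of the 48 distal sites of the 6 loci held, against 3.09% of all 60527 distal sites in both libraries. The intron 13 site (59011541 to 59011820) had 1.79 and 1.61.

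**Figure D2:**
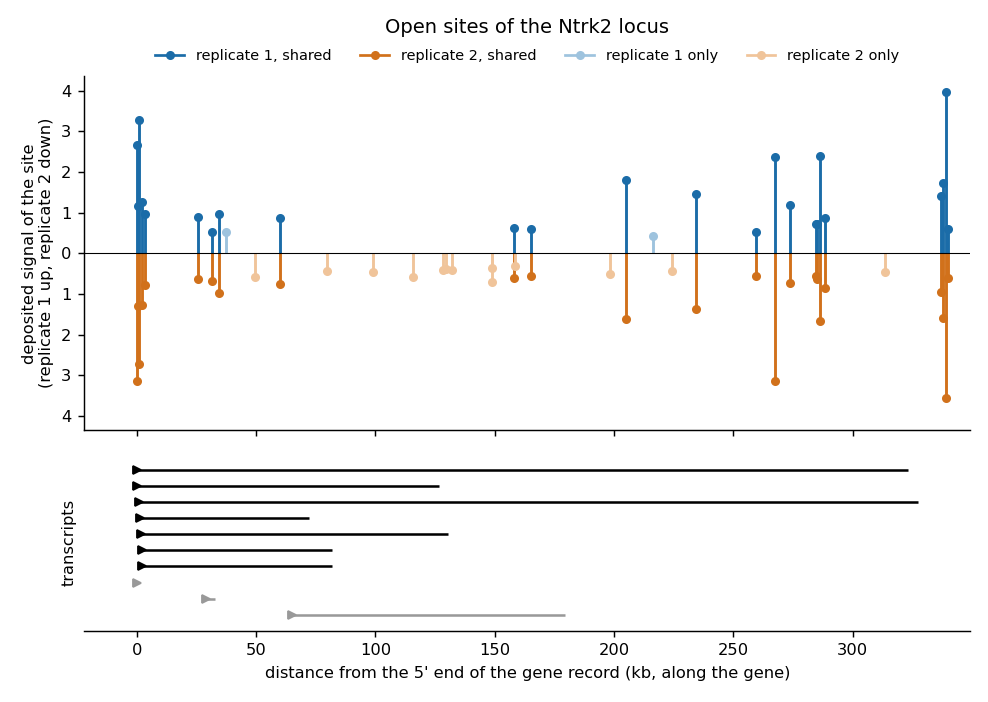
Open sites of the Ntrk2 locus by distance from the 5' end (kb), with the deposited signal of replicate 1 upward and of replicate 2 downward; dark colours mark sites found in both libraries and pale colours sites of 1 library. Below are the transcripts, coding in black and others in grey, with arrowheads at their starts; the highest sites stand at the promoters and about 339 kb from the 5' end.

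Ntrk3 spans chromosome 7, 78175959 to 78738012, on the minus strand, and has 20 annotated transcripts from 19 starts. Its promoter signal did not come from the starts of the transcripts that encode the receptor. The highest promoter peak (78718241 to 78718580) lay at the start of Ntrk3-218, a transcript without a coding sequence, 140 kb before the start of Ntrk3-201. It had 1.83 in replicate 1 and 1.78 in replicate 2, and 4 footprints of both libraries. Its sequence, printed above, holds TTGGCA, a partial site of NFI factors, in the longer capital stretch, and the CpG ratio around this start was low, at 0.239 observed to expected. Another, weaker site (78658075 to 78658380) covered the start of Ntrk3-217 and lay within 500 bp of that of Ntrk3-212, which is annotated with a partial coding sequence. Its signal was 0.539 in replicate 1 and 0.421 in replicate 2.

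At the main coding starts of Ntrk3 the libraries differed. Ntrk3-201, Ntrk3-205 and Ntrk3-206, with 825, 839 and 864 codons, and the shorter Ntrk3-202, with 612 codons, start between 78577783 and 78578408. In replicate 1, low peaks were listed within 500 bp of these starts. The highest in the window was 0.642 for Ntrk3-202, Ntrk3-205 and Ntrk3-206 and 0.648 for Ntrk3-201. The peak of 0.642 (78578279 to 78578348) was nearer to the start of Ntrk3-201 than that of 0.648 (78578885 to 78579000). The lowest false discovery rates of the peaks touching these windows lay between 1.78e-02 and 1.98e-02, and none was in the stricter peak list. In replicate 2 no peak was listed, and no base of these windows lay below 0.05. Replicate 1 held 5 such narrow peaks in a row, from 78578279 to 78580079, with signals from 0.618 to 0.660, and replicate 2 held none of them. The start of the antisense noncoding gene Gm9885 lay within 500 bp of 4 of them.

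These Ntrk3 starts were rich in CpG dinucleotides. Their ratio of observed to expected CpG ranged from 0.736 to 0.882, in quintiles 4 and 5 of all starts. In those quintiles 86.4% and 92.8% of all starts were open in both libraries, against 4.87% in quintile 1. The coding starts of Ntrk2 had ratios from 0.579 to 0.791 and those of Sort1 from 0.919 to 0.921, and all were open in both libraries. Ntf3-203, with a ratio of 0.730, had no peak in either library. The start of Ntrk3-218 showed the opposite pairing, with a ratio in quintile 2, where 10.1% of all starts were open in both libraries. Judged at the outermost 5' position of its record, Ntrk3 had no promoter peak in either library.

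**Figure D3:**
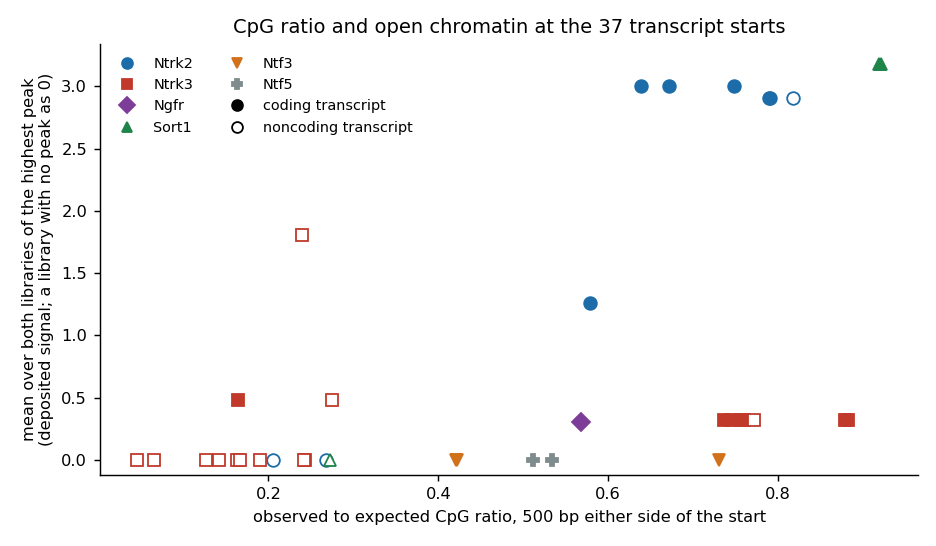
Observed to expected CpG ratio around each of the 37 starts against the mean over both libraries of the highest peak (deposited signal, with 0 for a library without a peak); filled symbols are coding starts. The Ntrk3 starts at ratios above 0.7 lie near the bottom, while Ntrk2 and Sort1 starts at like ratios lie near 3, and Ntrk3-218 stands alone at a ratio of 0.239.

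The Ntrk3 locus held 31 peaks in each library, 5.15 per 100 kb, at percentiles 74.7 and 47.7 of the 308 genes within 1.5-fold of its length. They formed 39 sites, of which 21 were found in both libraries, 9 in replicate 1 only and 9 in replicate 2 only. In the record before the start of Ntrk3-201, outside promoter windows, 9 of 12 sites were in both libraries. After that start 10 of 19 were. The strongest distal site (78390061 to 78390320), in intron 11 of Ntrk3-206, had 1.62 in replicate 1 and 1.86 in replicate 2. The other distal sites were lower, among them 78586041 to 78586280 with 1.25 and 1.11, 78596001 to 78596168 with 0.915 and 1.38, 78450261 to 78450504 with 0.812 and 1.26, and 78568977 to 78569164 with 0.7998 and 1.22. A site in an exon of Ntrk3-201 (78191001 to 78191300), outside the coding sequence, had 0.951 and 0.747.

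Of the 6 Ntrk3 sites in intron 11, 2 held CAGATG 3 times. In the central 200 bp of the strongest site CAGATG occurred 3 times, and all 3 matches touched a footprint in both libraries. The whole printed site holds a further match near its 3' end. About 4 kb further along the gene, the site at 78385981 to 78386320, with 0.624 in replicate 1 and 0.906 in replicate 2, also held 3 matches in its central 200 bp. Of these, 2 touched a footprint in both libraries and face each other 1 base apart, as the printed sequence shows. Sites with 3 or more matches made up 0.570% of all 60527 distal sites found in both libraries, and among the 48 distal sites of the 6 loci these 2 were the only ones.

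**Figure D4:**
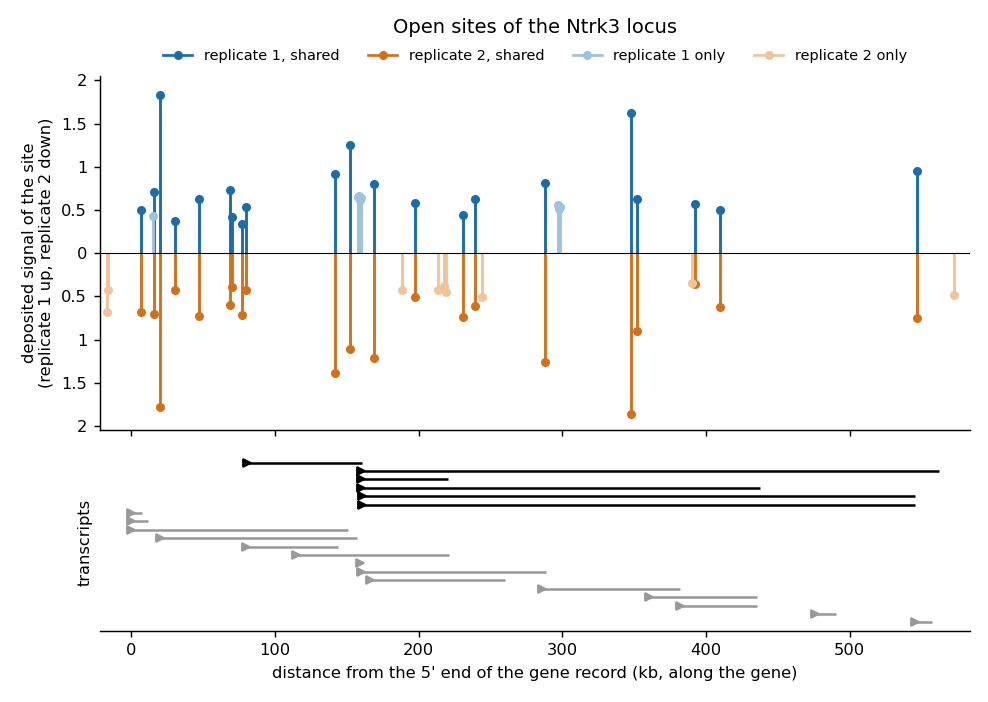
Open sites of the Ntrk3 locus by distance from the 5' end (kb), with replicate 1 upward and replicate 2 downward (deposited signal), dark for sites in both libraries and pale for sites in 1. Transcripts are drawn below, coding in black and others in grey; the highest sites lie at the start of Ntrk3-218, near 20 kb, and in intron 11, near 348 kb, and the pale blue group near 159 kb is at the coding starts.

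Sort1 spans chromosome 3, 108284082 to 108361511, on the plus strand. Both of its coding starts, 9 bp apart, were open in both libraries through 1 site (108283841 to 108284080) that ended just before the first of them. Its signal was 3.10 in replicate 1 and 3.27 in replicate 2, with lowest false discovery rates of 1.41e-17 and 7.81e-12. It had a GC content of 69.2% and held 2 short footprints of both libraries, 11 bases in all, which are the capitals in its sequence. The start of the noncoding Sort1-202 near the 3' end had no peak. A site before the gene (108282481 to 108282660), at -1.51 kb from its 5' end, had 1.41 in replicate 2 and was not listed in replicate 1.

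The Sort1 locus held 9 peaks in replicate 1 and 15 in replicate 2, in 18 sites, of which 6 were found in both libraries and 9 in replicate 2 only. The strongest distal site (108358461 to 108358860) had 1.21 in replicate 1 and 1.55 in replicate 2. It lay in exon 21, the last exon, and touched no coding sequence, so it lay in the 3' untranslated region. Of the other distal sites in both libraries, 3 lay in intron 1. They were 108295443 to 108295640 with 1.17 and 1.09, 108287981 to 108288220 with 1.08 and 0.930, and 108288450 to 108288749 with 0.885 and 0.883. A start of Gm43099, which is not annotated as protein-coding, lay within 500 bp of the site at 108287981. The remaining shared distal site (108327361 to 108327600), in intron 5, had 0.794 and 1.07. The exon 21 site averaged 1.38 ± 0.24, against 3.18 ± 0.12 at the promoter site (SD, n = 2 each). The promoter windows of Mybphl and of 1 start of Psma5 lay in the downstream flank, and none of the sites of the locus touched them. Psma5 did have a promoter peak in both libraries, 4.77 in replicate 1 and 4.37 in replicate 2, outside the locus. Mybphl had none in either library.

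Ngfr spans chromosome 11, 95568818 to 95587735, on the minus strand, and has a single annotated start. Its locus was sparse, with 1 peak in replicate 1 and 3 in replicate 2. In replicate 2 a promoter peak (95587521 to 95587800) reached 0.612, 348 bases of the window were listed below 0.05, and the lowest rate was 1.53e-08. In replicate 1, 16 bases were listed and the lowest rate was 4.03e-02. The promoter window held 4 GGGCGG matches, from 75 bp before to 23 bp after the start. No footprint was listed in this window in either library, so no match could lie in one. The same letters occurred in 54.2% of all promoter windows.

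The only Ngfr site in both libraries lay in intron 1 (95586281 to 95586540), 1.32 kb inside the gene, with 0.776 in replicate 1 and 1.02 in replicate 2 (0.897 ± 0.171, n = 2). It held the longest footprints of the locus, with 36 bp in replicate 2 and 25 bp in replicate 1. Of all footprints, 7.48% in replicate 1 and 6.90% in replicate 2 were 25 bp or longer. The shared bases are the capitals of the Ngfr sequence above, and none of the 12 motifs searched matched them. Motifs were matched as exact letters, so a stretch differing at 1 fixed letter was not counted, and no factor is excluded there. A weak intron 3 site (95577859 to 95577960, 0.302) was found in replicate 2 only. The Ngfr locus stood at percentiles 14.99 and 27.7 for peaks per 100 kb among 4851 genes of like length.

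Ntf3 spans chromosome 6, 126101412 to 126166910, on the minus strand, and none of its 3 starts had a peak. No base of the 3 windows was listed below 0.05 in either library. The nearest peak to any start lay 1460 bp away in replicate 1 and 971 bp away in replicate 2. Of all protein-coding genes, 36.5% and 35.5% were at least as far from a peak. The nearest one in replicate 2 (126167881 to 126168069) lay upstream of the gene with a signal of 0.899 and was not listed in replicate 1. Of the 14 sites in the locus, 3 were found in both libraries, 4 in replicate 1 only and 7 in replicate 2 only.

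All 3 shared sites of the Ntf3 locus lay far from the starts. The strongest (126106461 to 126106740), in intron 2 and 60.3 kb from the 5' end, had 0.503 in replicate 1 and 0.724 in replicate 2. Its printed sequence has 1 stretch in footprints of both libraries, next to TTGGCA, the letters of which touched a footprint in each library. Another intron 2 site (126111041 to 126111268) had 0.370 and 0.588. The last (126096201 to 126096440), in the downstream flank, had 0.479 and 0.604. Their median, 0.541, was lower than that of the shared sites of Ntrk2, 0.964, of Ntrk3, 0.662, and of Sort1, 1.07. Those of the other 3 genes include promoter sites, which Ntf3 lacked.

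Ntf5 spans chromosome 7, 45413695 to 45417179, on the plus strand, and is 3.48 kb long. No peak lay in the gene, and its 2 starts had no base below 0.05 in either library. The nearest peak was 8316 bp away in replicate 1 and 8335 bp in replicate 2, and 25.6% and 21.5% of all genes were at least as far from one. The high peaks in its flanks belonged to promoters of other genes. A site at the promoter of Snrnp70, a spliceosome gene, had 12.8 and 10.5. A site at the shared promoter of Ruvbl2 and Gys1 had 14.0 and 10.97. The potassium channel gene Kcna7 had a promoter site with 0.557 and 0.859, and Lhb, which encodes a luteinizing hormone subunit, had none. The locus held 22 footprints in replicate 1 and 25 in replicate 2.

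**Figure D5:**
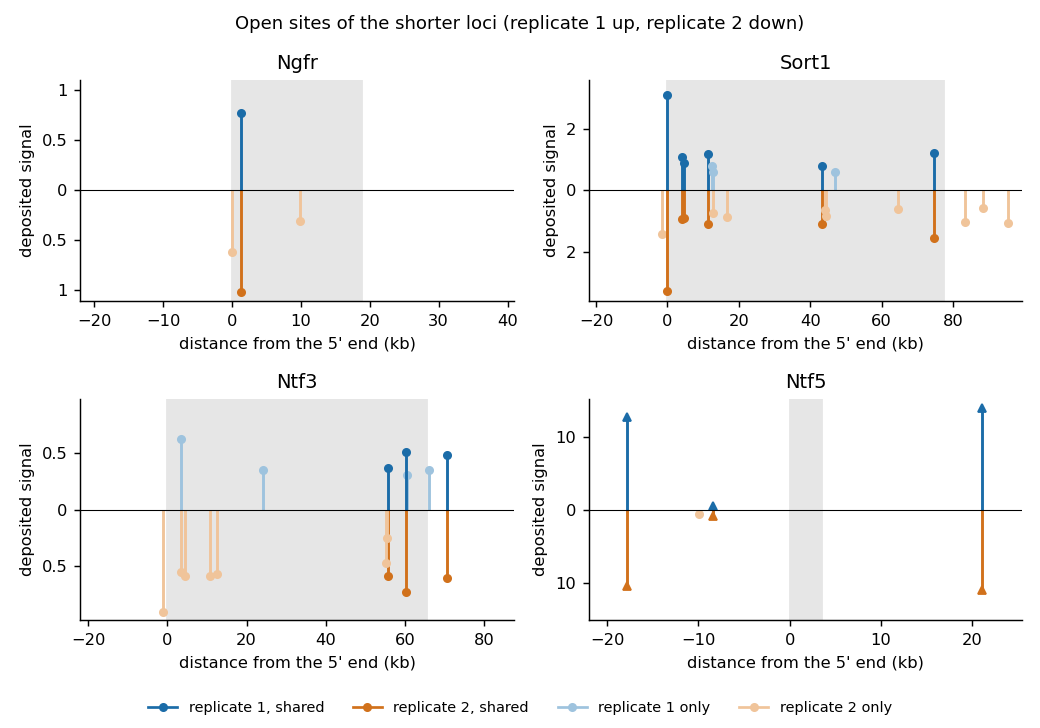
Open sites of the Ngfr, Sort1, Ntf3 and Ntf5 loci by distance from the 5' end (kb), with the gene record shaded, replicate 1 upward and replicate 2 downward (deposited signal, with a scale of its own in each panel). Triangles mark promoters of other protein-coding genes, the source of every site that both libraries listed in the Ntf5 locus, and the shaded Ntf5 record holds no site.

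Across the 6 loci there were 117 sites, of which 58 (49.6%) were found in both libraries, against 54.0% of 145362 sites over the whole genome. By peaks, 76.6% of the 77 in replicate 1 overlapped a peak of replicate 2 (Wilson 95% interval 66.05 to 84.7%), and all replicate 1 peaks did so in 81.6%. In the other direction 59.4% of the 101 did (49.7 to 68.5%), and all replicate 2 peaks in 62.0%. These intervals cover counting error only, and both include the value for all peaks. Of the 48 shared sites outside coding promoters, 31 (64.6%) held a footprint of both libraries, against 60.4% of all such sites. Their median mean signal was 0.788, against 0.686. Over the 58 shared sites the median log2 ratio of replicate 2 to replicate 1 signal was -0.02, and over all overlapping peaks it was 0.23.

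The motifs were counted as exact letters, without near matches, in the central 200 bp of the distal sites that both libraries shared. CAGATG occurred in 13 of the 48 shared distal sites (27.1%), against 32.5% of all, and 8 of the 13 were in Ntrk3. Of its 19 matches, 7 touched a footprint in both libraries, against 20.7% of all matches in distal sites. TTGGCA occurred in 14 sites (29.2%), against 22.7% of all, and GGGCGG in 6 (12.5%), against 8.01%. CTANNNNTA, read by MEF2 factors, occurred in 5 (10.4%), against 15.2%. The AP-1 letters TGANTCA occurred in none of the 48 sites, against 12.1% of all, and the CTCF core CCANNAGGG in none, against 6.94%. The CRE letters TGACGTCA occurred in 1 site (2.08%), against 0.436% of all, and TCAGCACCA, part of the REST site, in 2 (4.17%), against 0.439%. Sites of 1 locus share their gene, and with 48 sites these shares are descriptions. Of 238 matches, 1 pair of different motifs overlapped, GGGCGG and CTANNNNTA at Ntrk3-218.

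Other genes of neurotrophin signalling were mostly open at their promoters. Of 47 listed ligands, receptors, adaptors, kinases, proteases and p75NTR partners, 41 (87.2%) were open at a promoter in each library, against 59.2% of all genes. Their median promoter signal was 2.51, against 2.30 for all genes open in both. The highest were the small GTPase gene Rhoa (10.4 ± 2.38), the MEK1 gene Map2k1 (8.00 ± 0.19) and the transcription factor gene Creb1 (6.09 ± 0.82; n = 2 each). No promoter peak was found for the adaptor gene Shc2, the plasminogen gene Plg or the protease gene Mmp7. The ligand gene Bdnf had 1.26 in replicate 1 and 1.53 in replicate 2, while the Nogo receptor gene Rtn4r (0.954) had a promoter peak in replicate 2 only.

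The tissue label was checked by promoter peaks at marker genes. Both libraries had peaks at 10 of 10 genes of hippocampal and forebrain neurons, 5 of 6 of astrocytes, 4 of 5 of oligodendrocytes, 1 of 5 of microglia, 1 of 5 of endothelial and mural cells and 0 of 7 of other tissues. The libraries are labelled as tissue with no cell type named, so a site open in few cells and a site less open in many cannot be told apart. TrkB, TrkC and p75NTR are made by neurons and by glia, and the cell type behind each site was not tested.

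By promoter signal and peaks per 100 kb in both libraries (4 values, as log2 of the value plus 0.1), the genes nearest to Ntrk2 were Mfap3l and Emc6, at Euclidean distances of 0.10 and 0.119. Those nearest to Ntrk3 were Nol10 (0.119) and Rsph3a (0.168), and to Sort1 Espl1 (0.111) and Hist2h2ac (0.124). Ngfr was farthest from its nearest genes, Enpp3 (0.364) and Pid1 (0.407). For Ntf3 (Jph3, 0.016) and Ntf5 (Orm3, 0.0063, and Hist1h2br, 0.014) the promoter values were absent, so the density of peaks alone set the distance.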

How the data were processed

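DNase-seq libraries of 2 pools of mouse hippocampus were analysed from deposited lists. Per the deposited notes, each library's lists were made from its own mm10 alignments and were not pooled. The aligner, peak caller, footprint tool and read depth were not given in the sources used here. The deposited peak height is a signal in whole multiples of 1 step per library. The deposited false discovery rates (of the p-value kind) cover intervals below 0.05 alone, and the deposited footprints carry the p-value threshold 0.01 in each row. Reads of an F1 cross were placed on the reference assembly, and its effect on strain-specific bases was not tested.

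The larger peak list of each library was used. Overlaps needed 1 bp, and touching or overlapping peaks of both libraries were merged into sites. A site is distal when it lies outside the 500 bp windows of all protein-coding starts. Motifs were searched in the central 200 bp of a site and in the 1001 bp start window. The 6 genes, the 47 signalling genes, the markers and the motifs were chosen with earlier results of these data known. Named were all 6 genes, their promoter sites, up to 5 distal shared sites per locus with the highest mean signal, neighbouring promoters, the 3 highest listed genes and those without a peak, and the 2 nearest genes. A few genes covered by this rule are left unreported. Other sites, footprints and motif matches that the text names were chosen after their values were seen. No test was made, since there was 1 group. Calculations used Python 3.11.15, numpy 2.4.6 and pysam 0.24.0, and scripts were tested on simulated data. Alternatives were the stricter list, other windows and flanks, a reciprocal overlap of 0.5, each library left out, and signal divided by the median of shared peaks.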

Additional observations from a re-analysis of the deposited data

How the results depend on the processing

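The number of the 6 genes with a promoter peak in both libraries was 3 in the main setting. With a 2000 bp window it was 5, which added Ngfr and Ntf3. For Ntf3 the highest peaks in that window were 0.624 in replicate 1 and 0.899 in replicate 2. They were different sites, and neither was found in both libraries. The number was 2 when each gene was judged at the outermost 5' position of its record, which removed Ntrk3. Leaving out a library gave 3 to 4 genes. The number of open starts, 12, ranged from 13 to 19 when 1 library was left out, and was 19 without replicate 2, through the low Ntrk3 peaks of replicate 1. The mean number of peaks in the 6 loci, 89, was 46 in the stricter list and ranged from 77 to 101 by library. The mean share of peaks found in the other library, 68.0%, was 52.0% with a reciprocal overlap of 0.5, and footprints numbered 204 in replicate 1 and 201 in replicate 2. Of the alternative values, 52 stayed within 1 SD between libraries (signals and shares) or within 1.5 times (counts), and 14 moved by more. The 52 include promoter signals with 1 library left out, which could not move by this rule. With 2 libraries, each value always lies within 1 SD of their mean. No paired analysis was possible because there was 1 group. Peak lists hold no counts, so a site absent from a library was below its listing threshold and is not shown to be closed, and 2 libraries limit the spread.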
